A study of Homo sapiens with 12 samples.

Results

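The genes described here are 28 genes of cholesterol synthesis and sterol handling, taken by name from the 58735 genes of the count table. All 28 had enough reads to be tested, among 18560 tested genes. They comprise 18 enzymes of the synthesis pathway (7 of the mevalonate and isoprenoid steps and 11 of the squalene and sterol steps), 4 regulators of the pathway, and 6 genes of sterol transport, storage and efflux. RNA was sequenced from LX-2 cells, an established human line of hepatic stellate cells, in 4 groups of 3 libraries, all labelled wild type. The con group was untreated, and the TGFB group received TGF-β1, a cytokine that drives stellate cells to make matrix, at 5 ng/ml for 24 h. The SiNAT10 group was transfected, using Lipofectamine 2000, with small interfering RNA (siRNA) against NAT10, an enzyme that acetylates cytidine in RNA. The SiNAT10_TGFB group was transfected in the same way and, 48 h later, received TGF-β1 at 5 ng/ml for 24 h. No group with a control siRNA is named in the labels, so loss of NAT10 and the transfection itself cannot be told apart, and the time at which SiNAT10 cells were harvested is not given. Libraries carry biological replicate numbers, but no label says that they came from separate cultures; p-values therefore reflect only variation among these libraries, which may be technical.

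Cells make cholesterol from acetyl-CoA through mevalonate, squalene and lanosterol. The transcription factor SREBP-2, the product of SREBF2, switches on most of the enzymes. When sterol is scarce in the endoplasmic reticulum, SCAP escorts SREBP-2 to the Golgi for cleavage, and when sterol is plentiful the INSIG proteins hold both back. Sterol that enters through lysosomes is exported by NPC1 and NPC2, surplus sterol is esterified by SOAT1, and the transporters ABCA1 and ABCG1, which oxysterol-sensing LXR factors switch on, pass it out of the cell. Stellate cells store lipid droplets when quiescent and lose them on activation.

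Total counts were 25877008 to 35132582 per library, and each of the 6 siRNA libraries (at most 28311434) was shallower than each of the 6 others (at least 29797990). NAT10 was at 62.9, 68.8 and 69.9 CPM in con, and at 19.5, 18.5 and 17.9 CPM in SiNAT10. CPM here means counts scaled to a common library size with TMM factors. The log2 fold change of NAT10 was -1.85 (SE 0.0873) in SiNAT10 against con and -1.85 (SE 0.0876) in SiNAT10_TGFB against TGFB. SiNAT10 replicates 1 and 3 differed most of all replicate pairs (chi-square per degree of freedom 20.7, against 4.16 to 10.1 for the other pairs). Of 13 stellate cell markers 7 exceeded 1 FPKM in some library, and LRAT, which makes the stored retinyl ester, was listed at 0 in all. Among other cell types, 1 of 6 hepatocyte, 2 of 4 cholangiocyte, 0 of 5 leukocyte and 0 of 4 endothelial markers exceeded 1 FPKM. SERPINA1, the hepatocyte marker, was at 2.79 to 3.87 FPKM without siRNA and at 4.68 to 5.81 FPKM with it; TTR and FGB were listed at 0 in all libraries. The summed level of the stellate markers was 815 to 862 FPKM in con, 1532 to 1619 in TGFB, 693 to 754 in SiNAT10 and 919 to 921 in SiNAT10_TGFB. Within this sum markers went both ways. COL1A1, VIM, COL3A1 and PDGFRB were lower in SiNAT10 than in con, and SPARC, TIMP1 and RELN were higher. COL1A1 was at 297 to 322 FPKM in con and 78.3 to 98.5 FPKM in SiNAT10, and SPARC at 157 to 173 and 264 to 292 FPKM. The summed level of the cholangiocyte markers, nearly all of it SOX9, was 16.8 to 18.8 FPKM in SiNAT10 and 10.3 to 11.99 FPKM in the other groups. The part of these differences in the results below was not tested.

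Promoters are shown for 5 of the members called in the same direction in both TGF-β1 or both siRNA comparisons, taken by the smallest p in TGFB against con among those with a stretch to print. Sequences are from RefSeq (GRCh38.p14), whose promoter table held 24 of the 28 members. Each line gives the part of the 250 bases before the RefSeq start that lies outside GENCODE exons, 5′ to 3′ on the gene's strand, with CCAAT or its reverse complement ATTGG in capitals. CCAAT is the motif bound by NF-Y, a factor that works beside SREBP-2 at many sterol genes. The stretches are chr5:43313513-43313662 (minus strand) for HMGCS1, chr11:71448436-71448643 (minus) for DHCR7, chr7:155297628-155297775 (plus) for INSIG1, chr5:111512591-111512785 (minus) for STARD4 and chr9:104928238-104928405 (minus) for ABCA1.
HMGCS1: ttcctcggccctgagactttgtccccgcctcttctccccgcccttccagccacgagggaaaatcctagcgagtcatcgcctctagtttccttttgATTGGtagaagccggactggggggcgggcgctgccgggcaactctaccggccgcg
DHCR7: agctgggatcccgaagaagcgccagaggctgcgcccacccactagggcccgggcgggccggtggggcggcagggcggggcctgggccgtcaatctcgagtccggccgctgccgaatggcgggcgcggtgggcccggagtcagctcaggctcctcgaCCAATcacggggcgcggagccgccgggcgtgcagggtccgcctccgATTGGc
INSIG1: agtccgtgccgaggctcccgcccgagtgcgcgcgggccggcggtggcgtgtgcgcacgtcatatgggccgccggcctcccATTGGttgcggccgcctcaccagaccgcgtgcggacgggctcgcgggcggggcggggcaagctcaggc
STARD4: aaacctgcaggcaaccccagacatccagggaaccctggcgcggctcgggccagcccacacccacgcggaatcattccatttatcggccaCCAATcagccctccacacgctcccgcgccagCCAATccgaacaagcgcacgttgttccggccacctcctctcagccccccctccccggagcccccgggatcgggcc
ABCA1: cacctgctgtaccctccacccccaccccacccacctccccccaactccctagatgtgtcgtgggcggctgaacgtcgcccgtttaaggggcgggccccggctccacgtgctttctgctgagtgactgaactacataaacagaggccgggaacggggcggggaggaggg

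The whole 250-base windows of HMGCS1, DHCR7 and STARD4 each held 2 CCAAT matches on either strand, that of INSIG1 held 1, and that of ABCA1 held 0. CCAAT or ATTGG was in 17 of the 24 member windows (70.8%) and in 34.6% of the 11541 windows of tested genes. Among the synthesis enzymes 12 of 15 windows had a match, and in NSDHL matches on opposite strands shared bases. The SREBP motif TCACNCCAC, searched on both strands, was in the window of SREBF2 alone among members (4.17%), against 0.858% of tested genes. The spaced direct repeat bound by nuclear receptors was in 0 of the 24 windows and in 0.0347% of tested genes.

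With TGF-β1 alone, the RNA of 12 of the 18 synthesis enzymes was called higher. Judged by edgeR's quasi-likelihood test (adjusted p under 0.05, Benjamini-Hochberg, 18560 genes), 17 of the 28 members were higher in TGFB than in con, 5 were lower and 6 did not pass. Of all tested genes 24.1% were called in this comparison, 11.9% higher and 12.2% lower. The median log2 fold change of the members was 0.26, against -0.01 over all tested genes. With siRNA in both arms, 14 members were higher in SiNAT10_TGFB than in SiNAT10, 2 were lower and 12 did not pass, where 11.1% of all tested genes were called (5.92% higher and 5.15% lower). The members' median there was 0.28. The same 14 members were higher in both TGF-β1 comparisons, and TM7SF2 and SOAT1 were lower in both. In bulk RNA, fewer cells of a kind and less RNA per cell cannot be told apart.

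With siRNA, most of the same enzymes were lower. In SiNAT10 against con 16 members were lower, 4 were higher and 8 did not pass, where 52.8% of all tested genes were called (26.4% higher and 26.4% lower). The members' median log2 fold change was -0.29, against 0.02 over all tested genes. In SiNAT10_TGFB against TGFB 14 members were lower, 4 higher and 10 did not pass, with 53.1% of all tested genes called (26.3% higher and 26.8% lower), and the members' median was -0.18. In both siRNA comparisons 13 members were lower, and NPC1, NPC2 and ABCA1 were higher. The comparisons share groups (con is in both TGFB against con and SiNAT10 against con), so their values stand side by side and were not correlated. ACAT2, HMGCS1, MVK, FDPS, SQLE, CYP51A1, DHCR7 and SREBF2, 8 members in all, were higher in both TGF-β1 comparisons and lower in both siRNA comparisons. How many of all tested genes had such joint calls was not counted. The joint counts here and above therefore describe the members alone.

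**Figure D1:**
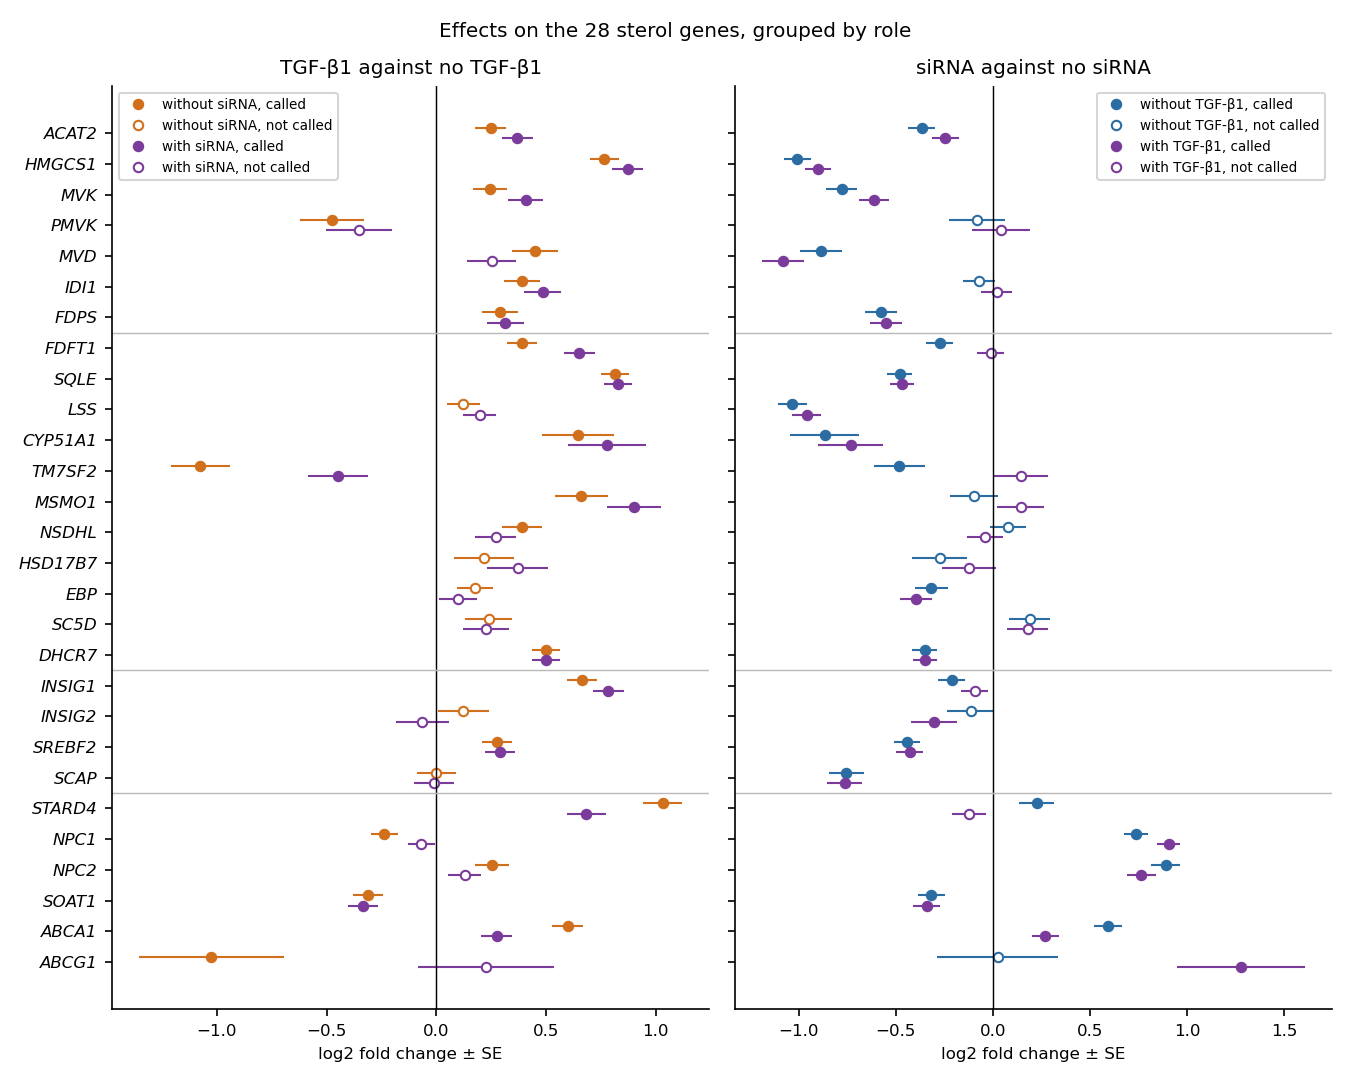
Log2 fold change ± SE (horizontal axis) of each of the 28 genes, grouped by role from top to bottom as mevalonate steps, squalene and sterol steps, regulators, and transport; filled points passed an adjusted p under 0.05. TGF-β1 effects (left) lie mostly to the right of 0, up to 1.03 for STARD4, while siRNA effects (right) lie mostly to the left among enzymes and regulators and to the right for NPC1, NPC2 and ABCA1.

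Summed over the 18 synthesis enzymes, con libraries held 1004, 996 and 1050 CPM, and TGFB libraries 1380, 1322 and 1393 CPM. SiNAT10 libraries held 722, 716 and 744 CPM, and SiNAT10_TGFB libraries 1014, 1009 and 1063 CPM. The TGFB libraries were thus the highest and the SiNAT10 libraries the lowest, and con and SiNAT10_TGFB overlapped, with means of 1017 ± 28.9 and 1029 ± 29.5 CPM (SD, n = 3). Single enzymes went both ways between con and SiNAT10_TGFB, a pair of groups that was not tested. LSS had means of 149 and 83.5 CPM, and MSMO1 of 62.2 and 109 CPM. Of the 18 enzymes 12 were higher and 2 lower in TGFB against con, and 0 were higher and 12 lower in SiNAT10 against con. In SiNAT10_TGFB against TGFB 0 were higher and 10 lower, and in SiNAT10_TGFB against SiNAT10 10 were higher and 1 lower.

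Of the 7 genes of the mevalonate and isoprenoid steps, 6 were higher and 1 lower with TGF-β1 alone, and 5 were lower in each siRNA comparison. HMGCS1 (ENSG00000112972), which condenses acetoacetyl-CoA with acetyl-CoA, was at 130.0, 117 and 127 CPM in con and 220, 209 and 207 CPM in TGFB. It was at 55.5, 63.6 and 67.1 CPM in SiNAT10 and 112, 110.3 and 118 CPM in SiNAT10_TGFB. Its TGFB libraries were the highest and its SiNAT10 libraries the lowest without overlap, and con overlapped SiNAT10_TGFB. The log2 fold change was 0.77 (SE 0.0676, adjusted p = 5.51e-09) in TGFB against con and -1.01 (SE 0.0695, adjusted p = 3.08e-11) in SiNAT10 against con. It was -0.90 in SiNAT10_TGFB against TGFB and 0.87 in SiNAT10_TGFB against SiNAT10, both called.

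MVD, the decarboxylase that yields isopentenyl diphosphate, was at 44.4, 42.7 and 49.6 CPM in con and 61.5, 55.8 and 69.4 CPM in TGFB. It fell to 29.6, 23.9 and 20.4 CPM in SiNAT10 and 27.1, 31.7 and 29.4 CPM in SiNAT10_TGFB, both below every con library. Its siRNA effects were -0.88 (SE 0.11) alone and -1.08 (SE 0.108) under TGF-β1 on the log2 scale. Its TGF-β1 effect was 0.45 (adjusted p = 0.00249) without siRNA, and 0.25 (adjusted p = 0.178) with it, which was called at 0.41 without SiNAT10 replicate 1 (adjusted p = 0.0108).

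MVK, the mevalonate kinase, was lower with siRNA by log2 values of -0.78 and -0.61 and higher with TGF-β1 by 0.24 and 0.41. FDPS, which builds farnesyl diphosphate, had siRNA effects of -0.57 and -0.55 and TGF-β1 effects of 0.29 and 0.31. ACAT2, which makes acetoacetyl-CoA, had siRNA effects of -0.37 and -0.24 and TGF-β1 effects of 0.25 and 0.37. All of these passed. In TGFB against con their calls were lost without 1 of several libraries, with log2 values about as large. MVK lost its call without con 1, con 2, TGFB 1 or TGFB 3 (log2 0.22 to 0.24), FDPS without con 1, TGFB 1 or TGFB 3 (0.25 to 0.27), and ACAT2 without con 2 or TGFB 1 (0.23). FDPS also lost its call in SiNAT10_TGFB against SiNAT10 without SiNAT10 1 (0.29) or SiNAT10_TGFB 3 (0.28). With libraries scaled by library size alone, which moved the median of all genes by -0.14 in TGFB against con, these 3 genes and SREBF2 and NPC2 did not pass in that comparison (log2 0.11 to 0.16).

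IDI1, the isopentenyl diphosphate isomerase, was higher with TGF-β1 by log2 values of 0.39 and 0.48, and its siRNA effects of -0.07 and 0.02 did not pass. Without SiNAT10 3, its effect in SiNAT10 against con was -0.19 and passed (adjusted p = 0.0368). PMVK, the phosphomevalonate kinase, was the member of this group that fell with TGF-β1, by 0.47 on the log2 scale (adjusted p = 0.0201). That call was lost without con 3, TGFB 2 or TGFB 3 (log2 -0.42 to -0.40). In SiNAT10_TGFB against SiNAT10 its value of -0.35 did not pass, and without SiNAT10 3 it was -0.49 and passed. The exons of ACAT2 overlap genes of the opposite strand, among them TCP1 and SOD2, over 52.3% of their bases, and those of FDPS, HMGCS1 and IDI1 over 18.6%, 14.9% and 14.8%. The strand setting of the counting is not given here, so reads of these genes and their partners may not be separable.

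Of the 11 genes of the squalene and sterol steps, 6 were higher and 1 lower with TGF-β1 alone, and 7 were lower in SiNAT10 against con and 5 in SiNAT10_TGFB against TGFB. SQLE, which adds oxygen to squalene, was at 65.6, 64.5 and 68.4 CPM in con and 119, 114 and 117 CPM in TGFB. It was at 44.6, 47.8 and 50.04 CPM in SiNAT10 and 87.0, 81.5 and 84.3 CPM in SiNAT10_TGFB. No 2 of the 4 groups overlapped. The TGF-β1 effects were nearly equal, at log2 0.82 (SE 0.0632) and 0.83 (SE 0.0646), and so were the siRNA effects, at -0.48 and -0.47. The difference between its TGF-β1 effects was 0.01 (95% interval -0.17 to 0.20). By construction the difference between its siRNA effects is the same number.

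LSS, which cyclises oxidosqualene to lanosterol, showed the siRNA effect and no called TGF-β1 effect. It was at 138, 155 and 154 CPM in con and 159, 154 and 174 CPM in TGFB, ranges that overlapped. In SiNAT10 it was at 79.2, 74.5 and 64.8 CPM and in SiNAT10_TGFB at 88.7, 79.8 and 81.9 CPM, all below every library without siRNA. The siRNA effects were -1.03 (SE 0.076, adjusted p = 9.17e-11) and -0.96 (SE 0.0757, adjusted p = 2.59e-10). The TGF-β1 effects were 0.12 (adjusted p = 0.252) and 0.20 (adjusted p = 0.111); the second was 0.26 and passed without SiNAT10 1 (adjusted p = 0.0294).

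MSMO1, which removes methyl groups from the sterol ring, showed the reverse. It was at 69.8, 54.4 and 62.5 CPM in con and 104, 97.9 and 93.4 CPM in TGFB, and at 105, 104 and 117 CPM in SiNAT10_TGFB. SiNAT10 libraries were spread over 45.6, 53.3 and 75.9 CPM, with replicates 1 and 3 on either side of all con libraries. The TGF-β1 effects were 0.66 (adjusted p = 0.000212) and 0.90 (adjusted p = 9.9e-06), and the siRNA effects of -0.10 and 0.14 did not pass. Without SiNAT10 3 the effect in SiNAT10 against con was -0.33 and passed (adjusted p = 0.00313).

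DHCR7, the reductase of the last step, was at 137, 148 and 157 CPM in con and 215, 196 and 215 CPM in TGFB. It was at 124, 113 and 110.7 CPM in SiNAT10 and 167, 161 and 163 CPM in SiNAT10_TGFB, without overlap between any groups. Its TGF-β1 effects were 0.50 and 0.50 and its siRNA effects -0.35 and -0.35, all called. FDFT1, which makes squalene, was higher with TGF-β1 by 0.39 and 0.65 and lower in SiNAT10 against con by -0.27, while its value of -0.01 in SiNAT10_TGFB against TGFB did not pass.

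CYP51A1, the lanosterol demethylase, had TGF-β1 effects of 0.65 and 0.78 and siRNA effects of -0.87 and -0.73, all called, at only 3.47 to 14.1 CPM. Other genes of its strand overlap 79.4% of its exon bases, and rows for its pseudogenes held 13% as many counts, so its values are uncertain. NSDHL, a sterol dehydrogenase, rose with TGF-β1 alone (0.39, adjusted p = 0.00293), and its value of 0.27 with siRNA (adjusted p = 0.069) passed without SiNAT10 1 (0.35). EBP, the sterol isomerase, was lower in both siRNA comparisons (-0.32 and -0.39) and its TGF-β1 values of 0.18 and 0.10 did not pass.

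SC5D, the sterol desaturase, and HSD17B7, a ketosteroid reductase, passed in none of the 4 comparisons as counted. Some of their values passed when a library was left out or the GC trend given below was removed. SC5D reached 0.28 in SiNAT10 against con without SiNAT10 1 and 0.35 in SiNAT10_TGFB against SiNAT10 without SiNAT10 3. HSD17B7, whose pseudogene rows held 16.8% as many counts, reached -0.41 and 0.51 in the same comparisons without SiNAT10 2.

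TM7SF2, a sterol reductase, was lower with TGF-β1, as PMVK was in TGFB against con, where 12 of the 18 synthesis enzymes were higher. It was at 13.7, 16.6 and 15.9 CPM in con and 7.22, 6.77 and 7.90 CPM in TGFB, and all TGFB libraries were below all con libraries. It was at 10.7, 12.8 and 9.56 CPM in SiNAT10 and 8.05, 9.21 and 6.99 CPM in SiNAT10_TGFB. Its TGF-β1 effects were -1.08 (SE 0.134, adjusted p = 1.29e-06) and -0.45 (SE 0.136, adjusted p = 0.0344). The second was lost without SiNAT10 2, SiNAT10_TGFB 1 or SiNAT10_TGFB 3 (-0.44 to -0.32). Its siRNA effect was -0.48 without TGF-β1 and 0.15, which did not pass, with it.

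Among the 4 regulators, SREBF2 and INSIG1 were higher in both TGF-β1 comparisons. SREBF2 was at 191, 220 and 207 CPM in con and 248.7, 235 and 264 CPM in TGFB. It was at 161, 148 and 146 CPM in SiNAT10 and 197, 189 and 170 CPM in SiNAT10_TGFB, and SiNAT10 was below all other groups. The TGF-β1 effects were 0.28 and 0.29 and the siRNA effects -0.44 and -0.43. INSIG1, itself switched on by SREBP-2, was at 83.7, 82.8 and 89.1 CPM in con and 138, 126 and 141 CPM in TGFB. It was at 66.2, 77.0 and 77.6 CPM in SiNAT10 and 121, 131 and 128 CPM in SiNAT10_TGFB, so that both TGF-β1 groups lay above both others. Its TGF-β1 effects were 0.67 (SE 0.0693) and 0.78 (SE 0.07). The siRNA effect was -0.21 (adjusted p = 0.0141), lost without con 3 (-0.18) or SiNAT10 1 (-0.14), and -0.09 under TGF-β1 (adjusted p = 0.272).

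SCAP showed a siRNA effect alone. It was at 135, 164 and 151 CPM in con, 150.1, 144 and 156 CPM in TGFB, 102, 89.0 and 75.7 CPM in SiNAT10, and 94.7, 90.8 and 79.5 CPM in SiNAT10_TGFB. Every siRNA library was below every other library, and the effects were -0.75 (SE 0.0902, adjusted p = 2.35e-07) and -0.76 (SE 0.0903, adjusted p = 1.84e-07). Its TGF-β1 effects were 0.00046 and -0.0086, and neither passed. INSIG2, the second INSIG gene, was called lower in SiNAT10_TGFB against TGFB alone (-0.30, adjusted p = 0.0378), a call lost without TGFB 1, TGFB 2 or SiNAT10_TGFB 2 (-0.26 to -0.17).

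**Figure D2:**
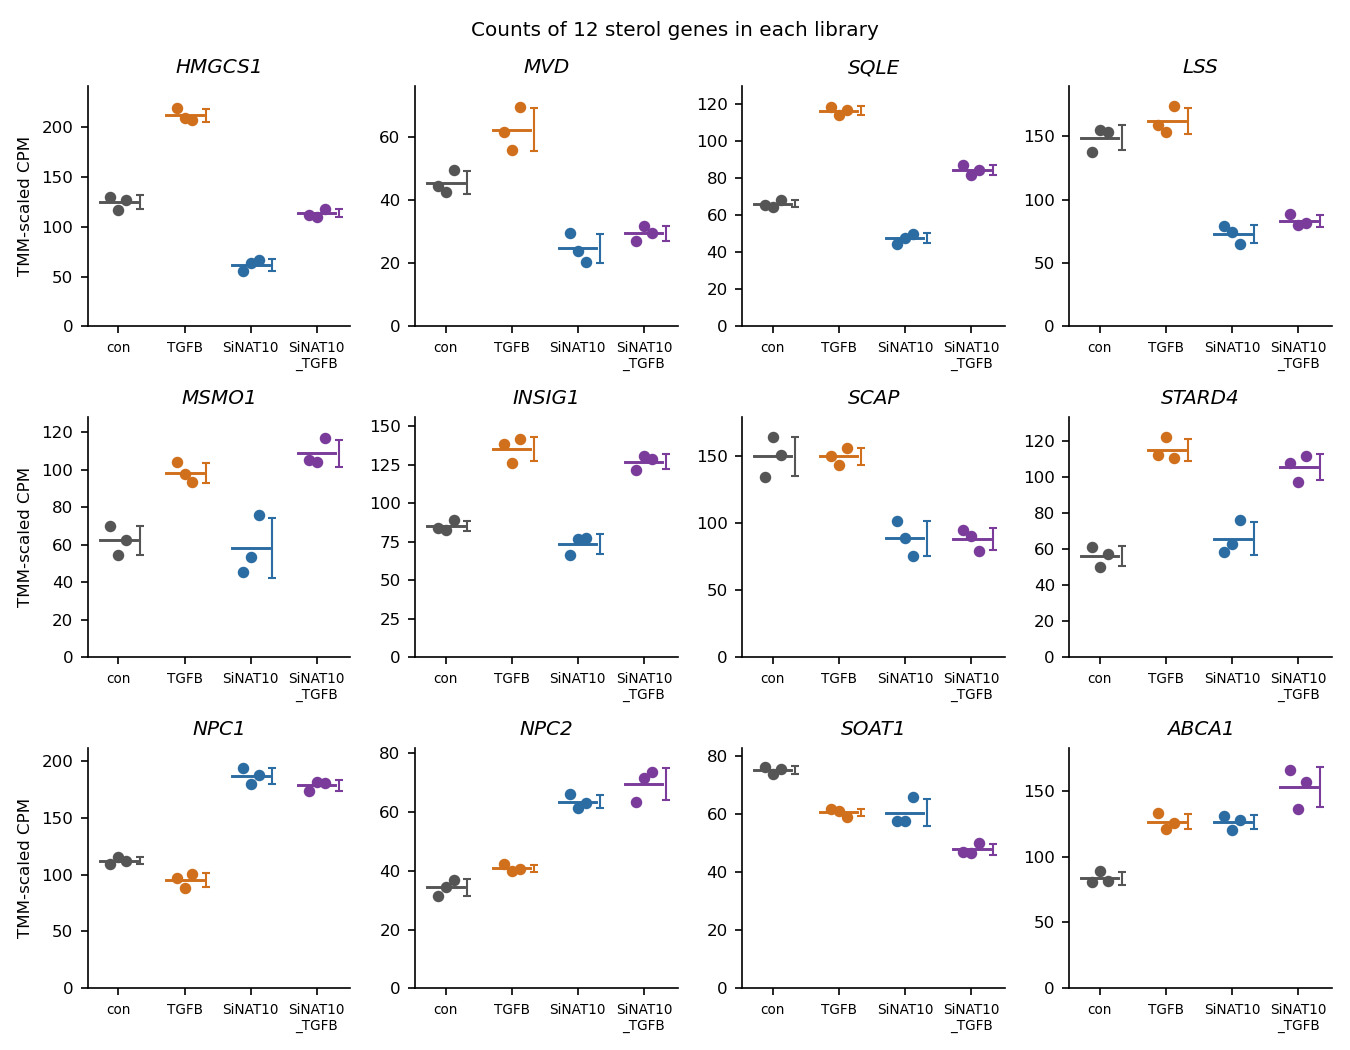
TMM-scaled CPM (vertical axis, from 0) of 12 of the genes in each library of the 4 groups; points are libraries, horizontal lines are group means and the bars beside them are ± SD (n = 3). For LSS and SCAP every siRNA library is below every other, for NPC1 and NPC2 every siRNA library is above every other, and for MSMO1, INSIG1 and STARD4 every library with TGF-β1 is above every one without.

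Of the 6 genes of transport, storage and efflux, 3 were higher and 3 lower with TGF-β1 alone, and 4 were higher and 1 lower in each siRNA comparison. STARD4, which carries cholesterol between membranes, had the largest TGF-β1 effect of the 28 members in TGFB against con in the upward direction. It was at 61.2, 50.2 and 57.0 CPM in con and 112, 122 and 110.5 CPM in TGFB, and at 58.2, 62.9 and 75.9 CPM in SiNAT10 and 108, 97.4 and 111 CPM in SiNAT10_TGFB. All libraries with TGF-β1 were above all without. The log2 fold changes were 1.03 (SE 0.0886, adjusted p = 3.47e-09) and 0.68 (SE 0.0885, adjusted p = 5.29e-06). Its siRNA effect of 0.23 without TGF-β1 was lost without con 2, con 3 or SiNAT10 3 (0.11 to 0.24), and that under TGF-β1 was -0.12 and did not pass.

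NPC1, the lysosomal membrane exporter, rose with siRNA. It was at 109, 116 and 112 CPM in con and 97.0, 88.2 and 101 CPM in TGFB, and at 194, 180.1 and 187 CPM in SiNAT10 and 173, 182 and 181 CPM in SiNAT10_TGFB. The siRNA libraries were all above the others, and the effects were 0.74 (SE 0.0609) and 0.91 (SE 0.0613). With TGF-β1 alone NPC1 was lower (-0.24, adjusted p = 0.0058), and with siRNA its value of -0.07 did not pass. NPC2, its soluble partner in the lysosome, was at 31.4, 34.6 and 36.9 CPM in con, 42.2, 39.9 and 40.6 CPM in TGFB, 66.1, 61.5 and 63.0 CPM in SiNAT10, and 63.5, 71.5 and 73.7 CPM in SiNAT10_TGFB. Again every siRNA library was above every other, with effects of 0.89 (SE 0.0769) and 0.77 (SE 0.0763). Its TGF-β1 effect without siRNA was 0.25, and the call was lost without con 1, TGFB 1 or TGFB 3 (0.19 to 0.25). With siRNA its value of 0.13 did not pass.

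SOAT1, which esterifies cholesterol for storage, was lower in all 4 comparisons. It was at 76.4, 73.8 and 75.8 CPM in con, 61.7, 61.2 and 59.2 CPM in TGFB, 57.8, 57.8 and 65.9 CPM in SiNAT10, and 47.1, 46.7 and 50.02 CPM in SiNAT10_TGFB. Con was the highest group and SiNAT10_TGFB the lowest, and TGFB and SiNAT10 overlapped. The log2 fold changes ran from -0.34 to -0.31, in the order TGFB against con -0.31, SiNAT10 against con -0.32, SiNAT10_TGFB against TGFB -0.34 and SiNAT10_TGFB against SiNAT10 -0.34.

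ABCA1, which exports cholesterol to apolipoprotein A-I, was higher in all 4 comparisons. It was at 80.5, 89.4 and 81.2 CPM in con, 133, 121 and 125 CPM in TGFB, 131, 120.3 and 128 CPM in SiNAT10, and 165, 136 and 156 CPM in SiNAT10_TGFB. Con was below all other groups, and TGFB and SiNAT10 overlapped. Its effects were 0.60 and 0.59 for TGF-β1 or siRNA alone, and 0.27 and 0.27 for either on top of the other. The call in SiNAT10_TGFB against SiNAT10 was lost without SiNAT10 2 (0.24) or SiNAT10_TGFB 1 (0.21). ABCG1, which exports cholesterol to lipoprotein particles, was at only 0.715 to 3.42 CPM. It was called lower in TGFB against con (-1.03, SE 0.33), a call lost without con 2, con 3, TGFB 1 or TGFB 2 (-1.002 to -0.86). In SiNAT10_TGFB against TGFB it was called higher (1.28, SE 0.33), though the ranges overlapped. TGFB libraries were at 0.895, 0.715 and 1.25 CPM and SiNAT10_TGFB libraries at 2.29, 3.42 and 1.23 CPM. Its other 2 values did not pass.

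The difference between the TGF-β1 effects with and without siRNA was tested directly as the interaction. For every gene it equals, by construction, the difference between the siRNA effects with and without TGF-β1. By edgeR's quasi-likelihood test 0 of the 28 members passed, where 3.85% of all tested genes were called (1.94% higher and 1.91% lower). At an unadjusted p under 0.05 there were 5 members, and 15.6% of all tested genes. They were TM7SF2 (log2 difference 0.63, 95% interval 0.23 to 1.02, adjusted p = 0.0697), ABCA1 (-0.32, -0.53 to -0.12), STARD4 (-0.35, -0.61 to -0.09), ABCG1 (1.25, 0.31 to 2.19) and FDFT1 (0.26, 0.06 to 0.46). DESeq2 called 2, TM7SF2 and ABCA1, and limma's voom called 0. At an unadjusted p under 0.05 DESeq2 and voom each took 5 members, with 15.9% and 15.6% of all tested genes. Their shares of all tested genes called after adjustment were not counted. In the edgeR fit, leaving out SiNAT10 2 or SiNAT10_TGFB 3 brought TM7SF2 past the threshold. Leaving out SiNAT10 1 did so for STARD4, SiNAT10_TGFB 1 for ABCA1, and SiNAT10_TGFB 3 for ABCG1. Among the other members the interval for MSMO1 ran from -0.11 to 0.59, and that for HMGCS1 from -0.10 to 0.31.

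Over all genes, the siRNA effect moved with the GC content of the transcript. Spearman's rho between GC content and log2 fold change, across 18552 genes of the same libraries and given as a description, was -0.29 in SiNAT10 against con and -0.28 in SiNAT10_TGFB against TGFB. It was 0.06 and 0.08 in the TGF-β1 comparisons. The members ranged from 34.2% (STARD4) to 64.2% GC (TM7SF2), with a median of 49.4% against 48.5% for tested genes. With this trend removed in each library, HMGCS1 stood at -1.20 and -1.08, LSS at -0.73 and -0.65, MVD at -0.41 and -0.57, SCAP at -0.30 and -0.30, NPC1 at 0.62 and 0.81, and NPC2 at 0.73 and 0.61 in the 2 siRNA comparisons, all called. MVK (-0.47 and -0.31) and SREBF2 (-0.20 and -0.19) kept their calls at smaller values, and SOAT1 (-0.51 and -0.52) at larger ones. The siRNA effects of DHCR7, a GC-rich transcript, went to -0.04 and -0.04 and did not pass. TM7SF2 went to 0.01 in SiNAT10 against con and to 0.66, called higher, in SiNAT10_TGFB against TGFB. STARD4 went to -0.07 and to -0.29, the latter called lower, and ABCA1 to 0.13 in SiNAT10_TGFB against TGFB, which did not pass. PMVK was called higher at 0.41 in SiNAT10_TGFB against TGFB. IDI1 (-0.26 and -0.16) and HSD17B7 (-0.45 and -0.30) became called lower in both, MSMO1 (-0.33) and INSIG2 (-0.38) in SiNAT10 against con, and INSIG1 (-0.23) in SiNAT10_TGFB against TGFB. In all, 18 members were then lower and 3 higher in SiNAT10 against con, where 29% of all genes were lower and 25.2% higher in that fit. In SiNAT10_TGFB against TGFB 17 members were lower and 5 higher, against 27.7% and 26.5% of all genes. In the interaction 2 members, TM7SF2 and FDFT1, were then higher and 1, ABCA1, lower, against 4.41% and 3.25% of all genes. In the TGF-β1 comparisons SC5D gained calls as higher in both (0.27 and 0.28), and HSD17B7 (0.40), LSS (0.16) and NSDHL (0.25) in SiNAT10_TGFB against SiNAT10. That gave 18 members higher and 5 lower in TGFB against con (13.7% and 16.8% of all genes), and 18 higher and 2 lower in SiNAT10_TGFB against SiNAT10 (8.33% and 7.65%).

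**Figure D3:**
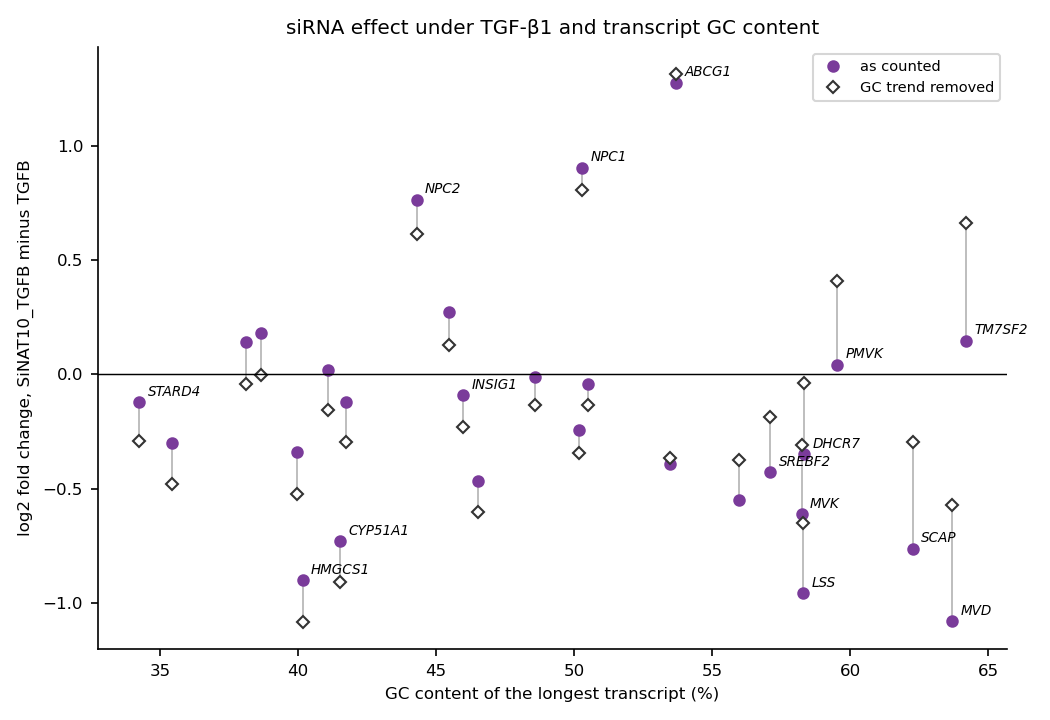
Log2 fold change in SiNAT10_TGFB against TGFB (vertical axis) of the 28 genes by the GC content in percent of their longest transcript (horizontal axis); filled points are values as counted and diamonds those with the GC trend removed. GC-rich genes such as MVD, SCAP and TM7SF2 moved up with the correction, and AT-rich genes such as HMGCS1 and STARD4 moved down.

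Levels were compared between genes as FPKM, the deposited values per gene length. In con, DHCR7 was the highest at 35.4 ± 2.32 FPKM (SD, n = 3), and SREBF2 (27.2 ± 1.97) and HMGCS1 (26.4 ± 1.48) followed and did not differ beyond their spread. INSIG1 (23.3 ± 0.912) and SCAP (23.2 ± 2.3) also lay within their spread of each other. The lowest were CYP51A1 (2.42 ± 0.482), HSD17B7 (2.24 ± 0.222), again within their spread, and ABCG1 (0.316 ± 0.0559).

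**Figure D4:**
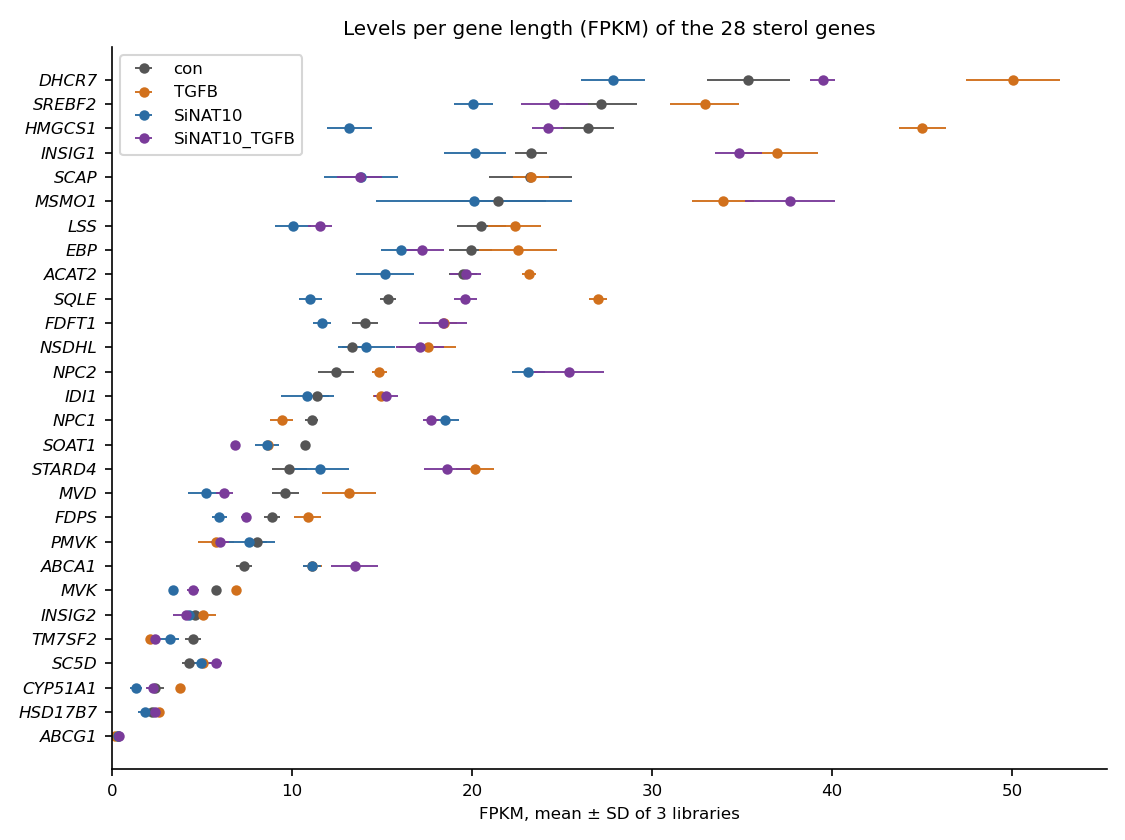
FPKM (horizontal axis, mean ± SD of 3 libraries) of the 28 genes in the 4 groups, ordered by level in con from DHCR7 at 35.4 to ABCG1 at 0.316. TGFB has the highest mean for DHCR7, SREBF2, HMGCS1 and SQLE, and the groups with siRNA for NPC1 and NPC2.

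Another 38 genes of sterol synthesis, sensing, transport and turnover were counted beside the members, and 36 of them could be tested. With TGF-β1 alone 4 were higher and 6 lower (median 0.02), and with TGF-β1 after siRNA 2 were higher and 4 lower. With siRNA 12 were higher and 10 lower in each of the 2 comparisons, with medians of 0.10 and 0.08. Of all tested genes, 11.9% were higher and 12.2% lower with TGF-β1 alone, and 5.92% and 5.15% with TGF-β1 after siRNA. With siRNA the shares were 26.4% and 26.4% without TGF-β1, and 26.3% and 26.8% under it. SREBF1, the gene of the SREBP form tied to fatty acid synthesis, had log2 fold changes of -1.24 and -1.495 with siRNA, both called. Its transcript has 62.8% GC, and the values of these other genes are as counted, without the GC trend removed. ERLIN2, part of the machinery that degrades sterol-regulated proteins, fell by 1.44 and 1.16, and NR1H2, which encodes an LXR, rose by 0.76 and was at 0.61 under TGF-β1, also called. With TGF-β1 alone NCEH1, a cholesteryl ester hydrolase, fell by 0.68 and ERLIN2 by 0.48, and OSBPL8, a lipid exchange protein, rose by 0.65 and STARD3, an endosomal sterol carrier, by 0.45. NCEH1 rose by 0.83 with siRNA under TGF-β1. In SiNAT10_TGFB against SiNAT10, ERLIN1, the partner of ERLIN2, fell by 0.23, and STARD3 (0.26) and NCEH1 (-0.26) were called; STARD3 lost that call without SiNAT10 2 or SiNAT10_TGFB 1 (0.21 to 0.25), and NCEH1 without SiNAT10 3, SiNAT10_TGFB 1 or SiNAT10_TGFB 2 (-0.24 to -0.20).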

How the data were processed

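Reads from 12 libraries were trimmed by fastp, and HISAT2 2.2.1 placed them on hg38, per the submitters' processing notes; for the counting tool, strand setting and annotation nothing is given in the sources used here. Gene counts and FPKM for 58735 genes were deposited by the authors. All gene positions match GENCODE release 29. Deposited FPKM equalled count over length up to 1 factor per library (0.933 to 1.09) and served for levels between genes and in alternatives.

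Counts were fitted in R 4.3.3 with edgeR 4.0.16: filterByExpr defaults (18560 genes, 99.9% of counts), TMM scaling (0.922 to 1.07), 1 quasi-likelihood fit of 4 group means, and Benjamini-Hochberg adjustment over all tested genes per comparison, with a threshold of 0.05. The SE is the absolute log2 fold change over the square root of F. A count of 3 corresponds to 0.0871 to 0.115 CPM. Alternatives were other scalings and filters, DESeq2 1.42.0, voom and FPKM models in limma 3.58.1 (pseudocounts 0.1 and 1), a per-library GC spline (5 degrees of freedom), the replicate number as a block, stricter thresholds and omission of each library. The fit was tested on simulated data.

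The members and lists were chosen with earlier results of these data known. All members may be named; of the other pathway genes, the 4 with the smallest p among those called in each comparison were named, with NAT10 as the check of the knockdown. Single values of 1 such gene are not reported here. Promoters were shown for up to 6 members called alike in both TGF-β1 or both siRNA comparisons, by smallest p in TGFB against con; that of TM7SF2 is wholly exonic and not shown.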

Additional observations from a re-analysis of the deposited data

Results flagged for a closer look

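By edgeR's interaction test with Benjamini-Hochberg adjustment, 0 of the 28 members and 3 of the 36 other sterol genes tested had TGF-β1 effects that differed between cells with and without siRNA, where 3.85% of all tested genes did. NCEH1, a cholesteryl ester hydrolase, fell less with TGF-β1 after siRNA (log2 difference 0.43, SE 0.0985, adjusted p = 0.0118), and the call was lost without SiNAT10 2 (0.38). OSBPL8, a lipid exchange protein, rose with TGF-β1 alone by 0.65 and was at 0.18 after siRNA, which did not pass (log2 difference -0.46, SE 0.118, adjusted p = 0.024). That call was lost without con 2, con 3, TGFB 1, TGFB 2 or SiNAT10_TGFB 2 (-0.46 to -0.39). GRAMD1B, which moves cholesterol from the plasma membrane, was lower with TGF-β1 alone by log2 -0.52 and at -0.06 after siRNA, which did not pass (log2 difference 0.46, SE 0.126, adjusted p = 0.0375). That call held only without SiNAT10 3 or SiNAT10_TGFB 2 among the fits that left out 1 library, and in the others the difference was 0.40 to 0.49.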

How the results depend on the processing

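Over the members' single values, 1431 of 1516 under 13 other settings and 1334 of 1404 with 1 library left out kept their direction and their side of the threshold. Causes of the changes below were not tested. Where no share of all genes stands beside a count below, that share was not counted. Not every count is repeated below for each setting, and a count left out need not be 0. Requiring a log2 fold change of at least 0.5 left, in TGFB against con, 7 members higher, 2 lower and 1 other pathway gene higher; in SiNAT10 against con, 7 members lower and 6 other genes higher and 5 lower; in SiNAT10_TGFB against TGFB, 7 members lower and 7 other genes higher and 6 lower; in SiNAT10_TGFB against SiNAT10, 8 members higher and 0 lower and 0 other genes higher and 1 lower; and in the interaction 0 other genes either way. Of all tested genes 12%, 32.6%, 33.9%, 5.49% and 2.65% passed this in the same order. As higher 6.27%, 15.1%, 15.5%, 3.05% and 1.26% passed, and as lower 5.68%, 17.6%, 18.4%, 2.44% and 1.38%. NPC1 and NPC2 stayed higher in both siRNA comparisons, ABCA1 in SiNAT10 against con and ABCG1 in SiNAT10_TGFB against TGFB. Other pathway genes also stayed lower in TGFB against con, NCEH1 (-0.68) and GRAMD1B (-0.52) among them. An adjusted p under 0.01 left 13 members higher and 3 lower in TGFB against con. In SiNAT10_TGFB against SiNAT10 it left ACAT2, HMGCS1, MVK, IDI1, FDFT1, SQLE, CYP51A1, MSMO1, DHCR7, INSIG1, SREBF2 and STARD4 higher, and 1 member lower. There it left 1 other gene in each direction, and in the interaction 0 other genes. Of all tested genes 16.2%, 7.02% and 2.06% passed it in these 3 comparisons. As higher 8.09%, 4.11% and 0.938% passed, and as lower 8.09%, 2.91% and 1.13%. With library size alone, which shifted the median of all genes by -0.14 in TGFB against con and 0.13 in SiNAT10_TGFB against TGFB, members' medians were 0.13 in TGFB against con, -0.24 in SiNAT10 against con, -0.054 in SiNAT10_TGFB against TGFB, 0.22 in SiNAT10_TGFB against SiNAT10 and 0.12 in the interaction. The share of called genes that were higher, over all genes, went from 49.5% to 23.4% in TGFB against con, from 49.6% to 61.3% in SiNAT10_TGFB against TGFB, from 53.5% to 36.7% in SiNAT10_TGFB against SiNAT10 and from 50.4% to 68.9% in the interaction. Other pathway genes were then 2 higher and 12 lower in TGFB against con and 1 higher in SiNAT10_TGFB against SiNAT10, and the interaction had 2 members higher and 0 other genes lower; LSS (-0.012), INSIG2 (-0.012) and SCAP (-0.13) changed sign in TGFB against con, and FDFT1 (0.12), NSDHL (0.088), HSD17B7 (0.0084), INSIG1 (0.037) and STARD4 (0.00682) in SiNAT10_TGFB against TGFB, none of them called before. Upper quartile scaling gave FDFT1 0.0018 there and 1 other gene higher in the interaction. Without a count filter SCAP was -0.012 in TGFB against con, ABCG1 -0.000446 in SiNAT10 against con, and 1 member was higher in the interaction. MVK then lost its call in TGFB against con (0.23, adjusted p = 0.071 by edgeR). In the interaction DESeq2 called 1 member higher and 1 lower. FPKM without a filter gave 3 members lower in TGFB against con, and 1 member lower, 1 other gene higher and 2 lower in SiNAT10_TGFB against SiNAT10. FPKM with a pseudocount of 0.1 or 1, and a fit of the compared groups only, each gave 1 member lower in SiNAT10_TGFB against SiNAT10. In FPKM, SCAP was 0.0015 (pseudocount 0.1) or 0.00103 (pseudocount 1) in that comparison, other genes in the interaction were 1 higher (0 without a filter) and 0 lower, and the members' median there was 0.012 with a pseudocount of 1. Calls of members lost under FPKM without a filter were those of PMVK (-0.42), MVD (0.41), CYP51A1 (0.497) and ABCG1 (-0.19) in TGFB against con, STARD4 (0.21) in SiNAT10 against con, INSIG2 (-0.24) and ABCG1 (0.25) in SiNAT10_TGFB against TGFB, and CYP51A1 (0.503), TM7SF2 (-0.32), SREBF2 (0.28) and ABCA1 (0.25) in SiNAT10_TGFB against SiNAT10, on a scale whose pseudocount shrinks low genes. With the filter, FPKM at either pseudocount still ended those of ABCG1 in TGFB against con (-0.71 and -0.19), STARD4 (0.22 and 0.21), INSIG2 (-0.29 and -0.24) and TM7SF2 (-0.43 and -0.32). A fit of the compared groups only ended the calls of STARD4 in SiNAT10 against con (0.22) and of FDPS (0.31) and TM7SF2 (-0.45) in SiNAT10_TGFB against SiNAT10, and MSMO1 in SiNAT10_TGFB against TGFB (0.15) and SC5D in TGFB against con (0.24) gained one. Library size alone also ended the calls of INSIG1 in SiNAT10 against con (-0.16), ACAT2 (-0.11) and INSIG2 (-0.17) in SiNAT10_TGFB against TGFB and FDPS in SiNAT10_TGFB against SiNAT10 (0.25), and SC5D gained one in SiNAT10_TGFB against TGFB (0.31). With the GC trend removed, SCAP was -0.045 in TGFB against con; PMVK 0.27, TM7SF2 0.011, NSDHL -0.038, SC5D -0.023 and STARD4 -0.071 in SiNAT10 against con; IDI1 -0.16, MSMO1 -0.043 and SC5D -0.0044, with a members' median of -0.26, in SiNAT10_TGFB against TGFB; INSIG2 0.021, with 4 other genes higher, in SiNAT10_TGFB against SiNAT10; and 2 members were higher and 1 lower in the interaction. Leaving out 1 library gave 3 to 5 members lower in TGFB against con (3 without con 3 or TGFB 2); 1 to 3 members lower in SiNAT10_TGFB against SiNAT10 (1 without SiNAT10 2, SiNAT10_TGFB 1 or SiNAT10_TGFB 3), with 0 to 3 other genes higher and 1 to 4 lower and a median of 0.27 to 0.34; a median of -0.22 to -0.17 in SiNAT10_TGFB against TGFB; and in the interaction 0 to 2 members higher, 0 to 1 lower, 0 to 2 other genes higher and 0 to 1 lower. Uncalled values that changed sign ranged, in TGFB against con, for SCAP from -0.071 to 0.071; in SiNAT10 against con, for PMVK from -0.21 to 0.056, MSMO1 from -0.33 to 0.052, NSDHL from -0.0023 to 0.16 and ABCG1 from -0.14 to 0.15; in SiNAT10_TGFB against TGFB, for PMVK from -0.0303 to 0.20, IDI1 from -0.0058 to 0.053, FDFT1 from -0.065 to 0.036 and NSDHL from -0.094 to 0.037; and in SiNAT10_TGFB against SiNAT10, for INSIG2 from -0.15 to 0.067, SCAP from -0.11 to 0.10 and ABCG1 from -0.16 to 0.53. Replicate numbers shared between groups did not pair the libraries. Correlations of same-numbered deviations were -0.0729 to 0.0485, with 0 of 18 over 0.1. In all, 0 libraries correlated best with their own number in every other group. With the number as a block, 1 other gene was higher in the interaction, GRAMD1B losing its call, and no call of a member changed. A count of 3 is worth 0.0871 to 0.115 CPM, beside 0.715 to 3.42 CPM for ABCG1, the member with the lowest CPM.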
